A study of Mus musculus with 6 samples.

Results

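The 33 genes described here encode the machinery of DNA replication and the enzymes and switches of S phase, the part of the cell cycle in which the genome is copied. They were chosen by gene symbol: 5 act in origin licensing, 6 form the MCM helicase, 4 activate that helicase, 4 encode polymerase or primase subunits, 6 act at the sliding clamp and on the lagging strand, 4 make deoxynucleotides and 4 act in G1/S control or maintenance methylation. Each symbol matched 1 of the 27179 genes in the deposited table. All 33 passed a filter of at least 1 CPM (counts per 1000000 reads, on the authors' scaling of the libraries) on average over the 6 libraries, as did 13885 genes in all. The RNA was poly(A)-selected from cerebral cortex of C57BL/6N mouse embryos at E18.5, shortly before birth. The CAP1-KO group (genotype Cap1flx/flx,Nestin-CRE, libraries FCRE3, FCRE4 and FCRE5) carried floxed Cap1 alleles and Nestin-driven Cre, so that recombination takes place in neural progenitors and is inherited by the neurons and glia they form. The Control group (genotype Cap1 flx/flx, libraries FF1, FF2 and FF4) carried the same floxed alleles and no Cre. An effect of Cre itself and the loss of CAP1, an actin-binding protein, therefore cannot be told apart. Nothing in the labels ties a library to a litter or a sequencing run, so p-values measure the spread between these libraries.

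Several features of the libraries bear on what follows. Depth lay between 32443864 and 36302598 reads. Cap1 measured 86.6, 85.9 and 82.9 CPM in CAP1-KO against 194, 193 and 166 CPM in Control (log2 fold change -1.10, SE 0.07, limma, Benjamini-Hochberg adjusted p = 0.000283). Xist, expressed from the inactive X, measured 2605, 2398 and 2653 CPM in CAP1-KO against 0.577, 2296 and 2.05 CPM in FF1, FF2 and FF4. The Y-linked Ddx3y measured 58.9 and 64.1 CPM in FF1 and FF4 and at most 0.0536 CPM in the other libraries, so the CAP1-KO libraries and FF2 were female by these genes, and FF1 and FF4 male. FF2 was thus the only female Control library, so sex and genotype can be told apart only in part. The Control library FF4 stood apart: reads over genes differed between FF4 and the other Control libraries with a chi-square per degree of freedom of 23.6 and 31.3, against 8.55 between FF1 and FF2 and 5.58 to 10.9 among the CAP1-KO libraries. All 10 cortex markers were detected. Their summed level was 2279, 2200 and 2390 CPM in FCRE3, FCRE4 and FCRE5, against 2199 CPM in FF4, 3267 CPM in FF1 and 3314 CPM in FF2. The median log2 fold change of these markers was -0.32, with 0 of 10 called, and the neuronal gene Neurod6 had -0.28. The lowest was Slc17a7, a glutamate transporter of cortical neurons named after its values were seen, at -0.78 (limma adjusted p = 0.0752, groups not overlapping). Without FF4, 9 of the 10 were called lower, as were 18.9% of all genes.

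In G1, the origin recognition complex with Cdc6 and Cdt1 loads the ring-shaped MCM complex onto DNA, and geminin (Gmnn) keeps Cdt1 from doing so again later in the cycle. In S phase, Cdc45 and the GINS complex join the MCM ring to make the active helicase. Polymerase alpha with primase starts each strand, and polymerases epsilon and delta, held on DNA by the clamp PCNA, extend the strands. Many of these genes are transcribed under E2F factors once cyclin-dependent kinases inactivate the retinoblastoma proteins. In the cortex shortly before birth, dividing cells sit mainly in the zones lining the ventricle, among a majority of postmitotic neurons. In such bulk RNA, more dividing cells and more RNA of these genes per dividing cell cannot be told apart.

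The replication genes were mostly slightly higher in CAP1-KO, and no single gene passed the test over all genes. Of 33 genes, 32 had a positive log2 fold change (96.97%, against 48.3% of all genes tested), and the median was 0.15, against -0.01 over all genes tested. By limma with Benjamini-Hochberg adjustment 0 were called higher, where 0.562% of all genes were, and 0 lower, where 0.403% were. By limma-voom on recovered reads the counts were also 0. At an unadjusted p under 0.05, 9 were higher (27.3%, against 7.74% of all genes) and 0 were lower (against 15.3%). In the same 9 genes every CAP1-KO library lay above every Control library (27.3%, against 11.1% of all genes), and in 0 of the 33 did every CAP1-KO library lie below (against 14.6%). The count higher at an unadjusted p under 0.05 was 18 of the 33 without FCRE4 (against 7.76% of all genes in that fit). It was 5 of the 33 without FCRE3 (against 4.88% of all genes) and 5 of the 33 without FF2 (against 4.15% of all genes). The median was 0.08 without FCRE3. All 33 genes were read in the same 6 libraries, so these counts are not 33 separate observations.

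The size of the difference rested on 2 of the 3 CAP1-KO libraries. Averaged over the 33 genes on log2(CPM + 1), FCRE3 stood 0.26, FCRE4 0.01 and FCRE5 0.19 above the Control mean, while FF1, FF2 and FF4 lay at 0.07, -0.02 and -0.05. FCRE4 was therefore below the Control library FF1, and the groups overlapped on this score. FCRE3 was above every Control library in 29 of 33 genes and FCRE5 in 24, but FCRE4 in 11, and FCRE4 was the lowest of the CAP1-KO libraries in 28 genes (84.8%, against 37.3% of all genes tested). The summed level of the 33 genes was 944, 791 and 915 CPM in FCRE3, FCRE4 and FCRE5, against 834, 788 and 766 CPM in FF1, FF2 and FF4.

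**Figure D1:**
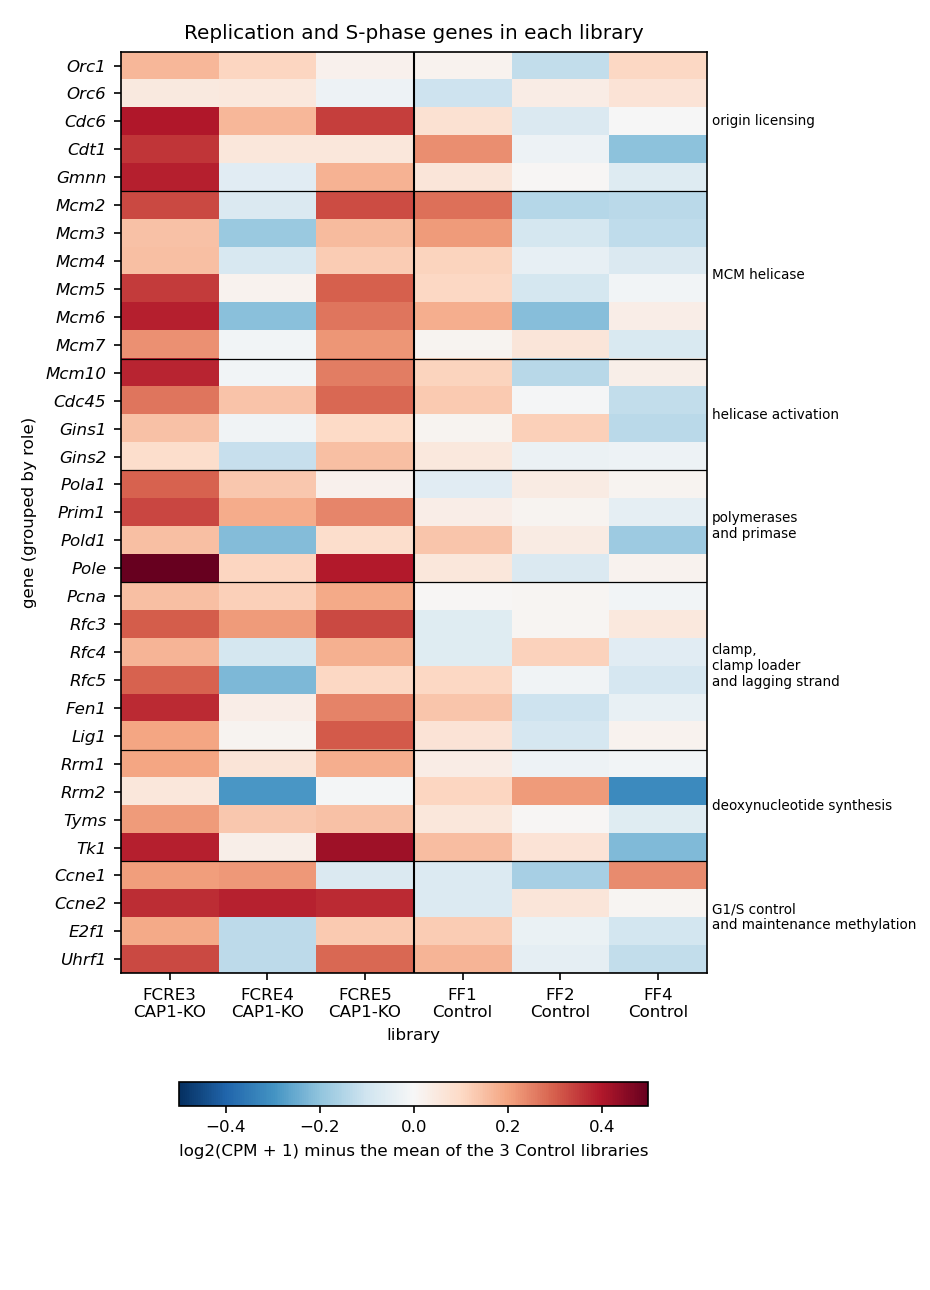
Each cell is log2(CPM + 1) of one gene in one library minus the mean of the 3 Control libraries, with genes grouped by role, CAP1-KO libraries to the left of the line and Control libraries to the right. FCRE3 lies above the Control mean in 33 of 33 genes, FCRE5 in 30 and FCRE4 in 18, and the Control library FF1 in 27.

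Rfc3 and Ccne2 had the smallest p-values, and neither passed the threshold. Ccne2, cyclin E2, which activates Cdk2 for entry into S phase, measured 7.99, 8.08 and 8.02 CPM in CAP1-KO against 5.64, 6.25 and 6.01 CPM in Control. The CAP1-KO values were nearly equal and all above the Control values (log2 fold change 0.37, SE 0.08, 95% interval 0.20 to 0.55, limma adjusted p = 0.0737). Rfc3, a subunit of the loader that places PCNA on DNA, measured 31.7, 29.7 and 32.3 CPM in CAP1-KO against 24.4, 25.7 and 26.5 CPM in Control (log2 fold change 0.28, SE 0.06, 95% interval 0.14 to 0.42, limma adjusted p = 0.0761). These genes kept their separation in FCRE4, which was low for many others. Without FF4, 4 of the 33 were called higher, Rfc3 (limma adjusted p = 0.00759), Ccne2 (0.0147), Prim1 (0.0263) and Pcna (0.0478), but 9.31% of all genes were called higher in that fit, so the share of 12.1% is near the background. Over the 13 alternatives the log2 fold change stayed between 0.31 and 0.43 for Ccne2 and between 0.25 and 0.35 for Rfc3.

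**Figure D2:**
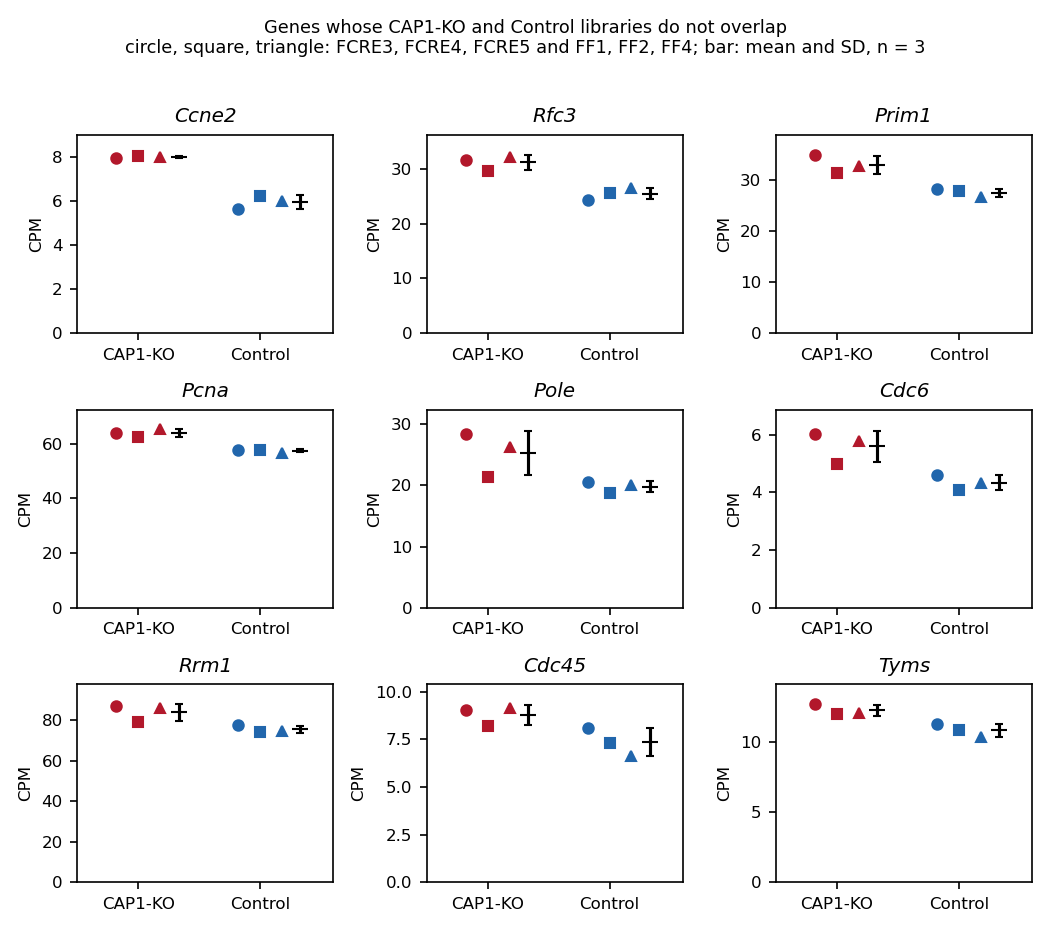
CPM of the 9 genes whose groups did not overlap, CAP1-KO libraries to the left and Control libraries to the right, with each group's mean and SD (n = 3). The gap between groups is wide for Ccne2, Rfc3 and Prim1 and narrow for Cdc45, whose nearest values are 8.20 CPM in FCRE4 and 8.11 CPM in FF1.

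Origin licensing genes ranged from separated groups in Cdc6 to level values in Orc6. Cdc6, the ATPase that works with the origin recognition complex to load MCM rings, measured 6.03, 4.98 and 5.77 CPM in CAP1-KO against 4.62, 4.08 and 4.32 CPM in Control (log2 fold change 0.30, SE 0.10, limma adjusted p = 0.136). Its groups did not overlap. Cdt1, its loading partner, measured 8.44, 6.67 and 6.67 CPM in CAP1-KO against 7.66, 6.25 and 5.41 CPM in Control, and geminin, the inhibitor of Cdt1, 6.65, 4.62 and 5.60 CPM in CAP1-KO against 5.10, 4.88 and 4.59 CPM in Control. Both overlapped, since FF1 exceeded FCRE4 in each. Orc6, a subunit of the origin recognition complex, measured 39.4, 39.5 and 37.4 CPM in CAP1-KO against 35.4, 39.1 and 39.9 CPM in Control, and its interval, -0.12 to 0.17, was narrow around 0. Orc1, its largest subunit, measured 1.74, 1.63 and 1.49 CPM in CAP1-KO against 1.47, 1.2505 and 1.63 CPM in Control. It had the fewest reads of the 33, with 51 to 65 reads in CAP1-KO and 42 to 54 in Control, so its log2 fold change of 0.10 (95% interval -0.17 to 0.36) is the one most limited by counting. The other 32 genes had at least 100 reads in every library.

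No MCM helicase gene was separated by group, and FCRE4 was low and FF1 high in most. All 6 had a positive log2 fold change, from 0.04 (Mcm3) to 0.22 (Mcm5), and 0 of 6 passed at an unadjusted p under 0.05. Mcm6 measured 66.2, 43.4 and 60.7 CPM in CAP1-KO against 57.1, 43.3 and 51.5 CPM in Control (log2 fold change 0.15, SE 0.16, limma adjusted p = 0.614). FCRE4 lay beside the lowest Control library, FF2. Mcm2 measured 34.8, 26.1 and 34.7 CPM in CAP1-KO against 33.4, 24.8 and 25.0 CPM in Control, so FF1 lay near FCRE3 and FCRE5 while FCRE4 lay near FF2 and FF4. Mcm5 came closest to the unadjusted threshold, with 39.3, 31.0 and 37.9 CPM in CAP1-KO against 32.99, 28.8 and 30.3 CPM in Control (log2 fold change 0.22, 95% interval -0.0042 to 0.45, unadjusted p = 0.0534 and adjusted p = 0.223 by limma). As a class, the 6 subunits averaged 0.26, -0.09 and 0.23 above the Control mean in FCRE3, FCRE4 and FCRE5, against 0.15, -0.08 and -0.06 in FF1, FF2 and FF4. Mcm7 measured 113, 95.5 and 112 CPM in CAP1-KO against 97.4, 101 and 91.4 CPM in Control (log2 fold change 0.14, limma adjusted p = 0.293). Mcm4 measured 39.8, 33.8 and 39.2 CPM in CAP1-KO against 38.8, 34.8 and 34.1 CPM in Control (log2 fold change 0.06), and Mcm3 23.7, 18.6 and 23.9 CPM in CAP1-KO against 24.9, 20.0 and 19.5 CPM in Control. In Mcm3 and Mcm4, FCRE4 was the lowest of the 6 libraries.

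Of the genes that turn the loaded ring into a moving helicase, Cdc45 alone was separated. Cdc45, which joins the ring with GINS, measured 9.01, 8.20 and 9.15 CPM in CAP1-KO against 8.11, 7.29 and 6.65 CPM in Control (log2 fold change 0.23, SE 0.09, limma adjusted p = 0.192). Mcm10, which acts at helicase activation, measured 8.87, 6.51 and 8.04 CPM in CAP1-KO against 7.18, 5.90 and 6.74 CPM in Control (log2 fold change 0.21, limma adjusted p = 0.351). Its overlap came from FCRE4. Gins1, a GINS subunit, measured 10.1, 8.94 and 9.79 CPM in CAP1-KO against 9.17, 9.94 and 8.19 CPM in Control (log2 fold change 0.07, 95% interval -0.14 to 0.29). Its partner Gins2 measured 5.74, 4.85 and 6.03 CPM in CAP1-KO against 5.58, 5.21 and 5.23 CPM in Control (log2 fold change 0.04, 95% interval -0.19 to 0.27). Both overlapped.

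Among polymerases and primase, the leading strand polymerase and the primase were separated, and the lagging strand polymerase was not. Pole, the catalytic subunit of polymerase epsilon, measured 28.3, 21.3 and 26.3 CPM in CAP1-KO against 20.6, 18.8 and 20.0 CPM in Control (log2 fold change 0.33, SE 0.10, limma adjusted p = 0.128). All CAP1-KO libraries were above Control, FCRE4 by the least. Without FCRE4, Pole was the only 1 of the 33 called higher (log2 fold change 0.45, limma adjusted p = 0.0455), where 0.555% of all genes were. Prim1, the catalytic primase subunit, measured 35.0, 31.5 and 32.8 CPM in CAP1-KO against 28.2, 27.8 and 26.7 CPM in Control (log2 fold change 0.25, SE 0.06, limma adjusted p = 0.0908). Pold1, the catalytic subunit of polymerase delta, measured 28.7, 22.0 and 27.4 CPM in CAP1-KO against 28.5, 26.6 and 22.6 CPM in Control, with a log2 fold change of 0.01 (95% interval -0.27 to 0.28). Whether Pole and Pold1 differ in response was not tested, and their intervals overlap. Pola1, the catalytic subunit of polymerase alpha and the only one of the 33 on the X chromosome, measured 27.1, 24.1 and 22.2 CPM in CAP1-KO against 21.0, 22.5 and 22.1 CPM in Control (log2 fold change 0.15, limma adjusted p = 0.299).

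**Figure D3:**
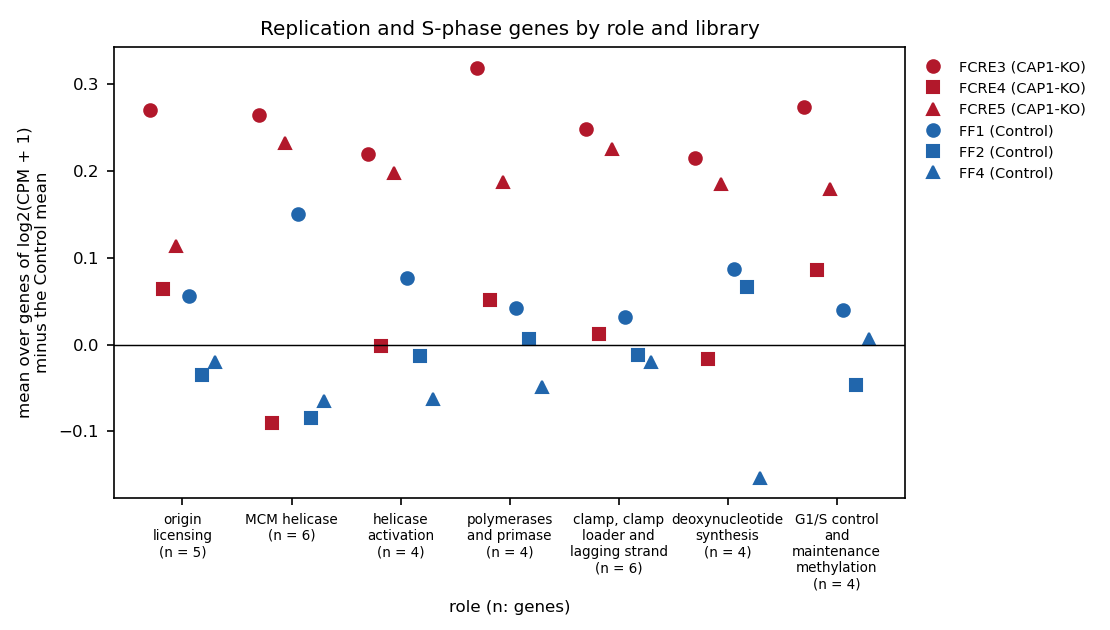
Mean over the genes of each role of log2(CPM + 1) minus the Control mean, 1 point per library, CAP1-KO in red to the left and Control in blue to the right within each role. FCRE3 is the highest library in each role, and for the MCM helicase FCRE4 is the lowest, at -0.09.

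At the clamp and on the lagging strand, Pcna and Rfc3 were separated. Pcna, the ring that holds polymerases on DNA, measured 63.8, 62.5 and 65.5 CPM in CAP1-KO against 57.6, 57.9 and 56.8 CPM in Control. Both groups were tight, with SDs of 1.53 and 0.545 CPM, around means of 63.9 CPM in CAP1-KO and 57.4 CPM in Control (log2 fold change 0.15, SE 0.04, limma adjusted p = 0.114). Fen1, the nuclease that trims the flaps of Okazaki fragments, measured 23.1, 18.1 and 21.1 CPM in CAP1-KO against 19.6, 16.4 and 17.2 CPM in Control, and Lig1, the ligase that joins the fragments, 53.2, 46.8 and 57.5 CPM in CAP1-KO against 48.5, 43.6 and 46.9 CPM in Control. In both, FCRE4 lay below FF1. Of the other clamp loader subunits, Rfc4 measured 15.6, 12.9 and 15.7 CPM in CAP1-KO against 13.2, 15.0 and 13.2 CPM in Control (log2 fold change 0.09, 95% interval -0.14 to 0.31). Rfc5 measured 17.2, 11.7 and 15.0 CPM in CAP1-KO against 15.0, 13.7 and 13.02 CPM in Control (log2 fold change 0.06, 95% interval -0.24 to 0.36). FCRE4 was the lowest of the 6 libraries in each.

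Deoxynucleotide synthesis genes included the only one of the 33 with a negative fold change. Rrm1, the large subunit of ribonucleotide reductase, measured 86.8, 79.1 and 85.7 CPM in CAP1-KO against 77.5, 74.3 and 74.8 CPM in Control (log2 fold change 0.15, SE 0.05, limma adjusted p = 0.150). Rrm2, the small subunit of the same enzyme, measured 42.8, 33.4 and 40.8 CPM in CAP1-KO against 44.3, 47.8 and 32.8 CPM in Control (log2 fold change -0.08, SE 0.15, limma adjusted p = 0.773). The subunits thus had different patterns over the libraries, with Rrm2 low in FCRE4 and FF4 alike. Tyms, thymidylate synthase, measured 12.7, 11.96 and 12.1 CPM in CAP1-KO against 11.3, 10.9 and 10.3 CPM in Control (log2 fold change 0.16, SE 0.07, limma adjusted p = 0.212), and was separated. Tk1, the thymidine kinase of the salvage route, measured 7.43, 5.57 and 7.64 CPM in CAP1-KO against 6.16, 5.75 and 4.53 CPM in Control, with the widest upper bound of the 33 (log2 fold change 0.28, 95% interval -0.05 to 0.61). The upper bound was below 1 on the log2 scale in all 33 genes.

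G1/S control genes other than Ccne2 did not differ beyond their spread. Ccne1, cyclin E1, measured 5.76, 5.81 and 4.58 CPM in CAP1-KO against 4.58, 4.23 and 5.89 CPM in Control, and overlapped fully (log2 fold change 0.12, SE 0.14, limma adjusted p = 0.636). E2f1, an activating E2F factor, measured 11.6, 9.11 and 11.1 CPM in CAP1-KO against 11.1, 9.80 and 9.37 CPM in Control (log2 fold change 0.06, 95% interval -0.18 to 0.31). Uhrf1, which brings the maintenance methyltransferase to newly copied DNA, measured 31.7, 22.8 and 30.7 CPM in CAP1-KO against 28.3, 24.3 and 22.9 CPM in Control (log2 fold change 0.16, SE 0.13, limma adjusted p = 0.504). E2f1 and Uhrf1 were lower in FCRE4 than in every Control library.

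**Figure D4:**
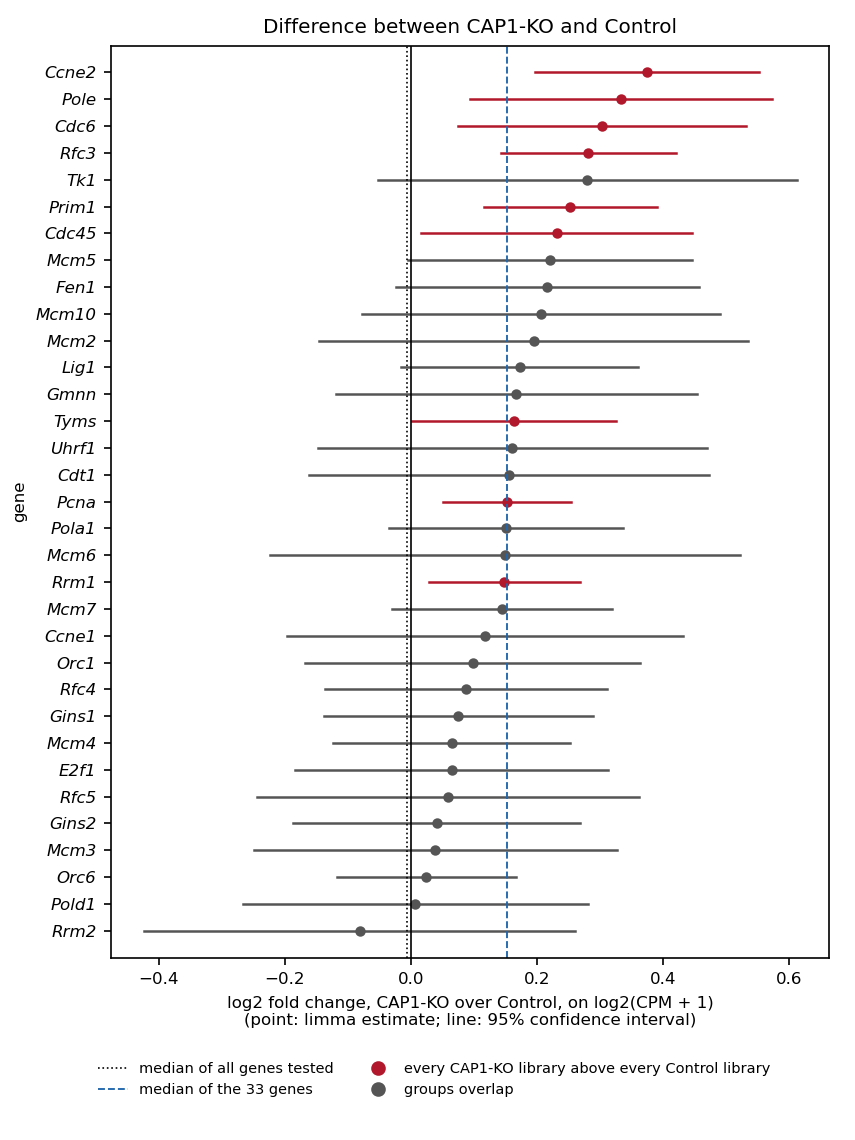
Log2 fold change of CAP1-KO over Control on log2(CPM + 1) for each of the 33 genes (point) with its 95% confidence interval from limma (line), ordered by size. In red are the 9 genes whose groups did not overlap. All but Rrm2 lie above 0, and 24 of the 33 intervals include 0.

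Promoters are shown for Rfc3, Cdc6 and Tyms, the 3 genes with the smallest p-values among those whose promoter held an E2F-type motif, written TTTNNCGC and searched on both strands. Of the 33 genes, 27 had a RefSeq promoter (GRCm38.p6, 250 bases before to 50 after the start), and Ccne2, Gmnn, Gins1, Gins2, Mcm4 and Pole had none. The motif was in 13 of the 27 (48.1%), against 5.93% of 27025 genes with a promoter of that length. Its specific forms TTTGGCGC and TTTCCCGC were each in 5 of the 27 (18.52%), against 0.585% and 1.24% of all genes. The Tyms match, TTTGTCGC, was neither of these specific forms and lay 41 bases after the listed start. CCAAT, whose first base can be the last base of a match to the others, was in 16 of the 27 (59.3%), against 41.1%. A gene with several listed starts counted once if any of its promoters held the motif. For Cdc6, E2f1 and Orc1 the listed start lay inside the gene as annotated in RefSeq, and so did the whole window. The same held for some listed windows of Fen1, Lig1, Mcm7 and Uhrf1, which had several listed starts. The only Lig1 match lay in such a window. For Mcm5, Pola1, Tk1, Tyms and another start of Mcm7, the start lay inside the gene and part of the window outside it. The annotated Cdc6 gene begins at base 98907709. Capitals mark each match to TTTNNCGC or its reverse complement, read 5′ to 3′ on the strand of the gene. The regions are chr5:151651159-151651458 on the minus strand for Rfc3, chr11:98907901-98908200 on the plus strand for Cdc6 and chr5:30073576-30073875 on the minus strand for Tyms.
Rfc3: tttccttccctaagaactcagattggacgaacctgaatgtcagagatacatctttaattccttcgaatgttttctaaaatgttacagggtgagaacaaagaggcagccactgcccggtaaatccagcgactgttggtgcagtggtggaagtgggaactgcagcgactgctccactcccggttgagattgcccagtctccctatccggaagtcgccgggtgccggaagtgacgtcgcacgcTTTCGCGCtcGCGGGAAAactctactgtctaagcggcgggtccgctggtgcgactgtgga
Cdc6: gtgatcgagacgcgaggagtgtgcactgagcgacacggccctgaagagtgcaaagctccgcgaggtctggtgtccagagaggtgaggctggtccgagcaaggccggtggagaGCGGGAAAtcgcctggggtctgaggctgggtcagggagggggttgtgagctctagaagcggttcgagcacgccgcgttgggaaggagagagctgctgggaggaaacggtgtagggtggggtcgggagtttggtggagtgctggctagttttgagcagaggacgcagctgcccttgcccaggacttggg
Tyms: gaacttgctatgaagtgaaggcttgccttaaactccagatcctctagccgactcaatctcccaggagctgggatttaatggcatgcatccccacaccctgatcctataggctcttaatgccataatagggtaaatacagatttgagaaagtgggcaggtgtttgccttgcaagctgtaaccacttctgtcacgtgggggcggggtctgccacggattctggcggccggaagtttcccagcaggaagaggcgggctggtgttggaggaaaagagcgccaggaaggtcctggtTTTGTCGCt
Of the 9 separated genes, Pcna, Prim1, Rrm1 and Cdc45 held no match in this window, and among those not separated Mcm6 held 3, the most of the 27. A match describes letters only and says nothing of binding in this tissue.

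Per length of transcript, the 33 genes covered a wide range of levels. In CPM per kilobase of exon, averaged over the 6 libraries, Pcna (25.3) and Mcm7 (23.0) were highest, followed by Orc6 (15.6), Rrm2 (14.5), Lig1 (11.6) and Mcm6 (11.5). At the low end, Orc1 (0.442), Mcm10 (0.937), Cdc6 (0.950) and Tk1 (1.19) lay lowest. The subunits of the MCM ring, which assemble in equal number, ranged from 4.28 CPM per kilobase (Mcm2) to 23.0 (Mcm7). Exon length was the union of all annotated exons in GENCODE, so genes with long minor isoforms read low on this scale.

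Related lists had medians between 0.01 and 0.23, highest for mitosis genes. Of 40 other replisome genes 0 were called higher and 0 lower, 34 were positive, and the median log2 fold change was 0.07. Chtf8 and Mcmbp, the 2 of highest level, measured 111 ± 1.74 and 95.2 ± 3.80 CPM in CAP1-KO and 121 ± 7.69 and 93.6 ± 7.53 CPM in Control (mean ± SD, n = 3 each). Of 18 replication stress and repair genes 0 were called, 16 were positive, and the median was 0.20, with the mismatch repair gene Msh6 at 0.07. Of 16 chromatin replication genes 0 were called, 12 were positive, and the median was 0.05. Nasp, a histone chaperone, had a log2 fold change of 0.04 and Dnmt1, the maintenance methyltransferase, of -0.05. Of 17 nucleotide supply genes 0 were called, 10 were positive, and the median was 0.01, with Nme1 at -0.10 and Paics at 0.10. Of 29 G1/S regulators 0 were called, 16 were positive, and the median was 0.02, with the G1 cyclin Ccnd2 and its kinase Cdk4 at 0.03 and 0.02. Of 25 mitosis genes 0 were called, all 25 were positive (against 48.3% of all genes), 15 were higher at an unadjusted p under 0.05 by limma (against 7.74%) and the median was 0.23. Top2a, which untangles replicated DNA, measured 135.0 ± 11.3 CPM in CAP1-KO and 115 ± 8.15 CPM in Control (limma adjusted p = 0.136), and Mki67, a proliferation marker, 122 ± 13.8 CPM in CAP1-KO and 104 ± 9.84 CPM in Control (limma adjusted p = 0.206). Without FF4, where 9.31% of all genes were called higher and 18.9% lower, these lists together had calls in both directions, the most in G1/S regulators, with 3 of 29 higher and 6 of 29 lower.

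The mitosis genes had the same order of libraries as the replication genes. They averaged 0.35, 0.06 and 0.30 above the Control mean in FCRE3, FCRE4 and FCRE5, against 0.12, -0.06 and -0.06 in FF1, FF2 and FF4. The genes outside the 33 whose level over the 6 libraries was most like their mean profile were Ccna2, the cyclin of S phase and G2 (Pearson r of 0.997 over 6 libraries), Mybl2, a transcription factor of dividing cells (0.991), Clic4 (0.989), Mettl5 (0.989) and Kif15, a mitotic kinesin (0.989). These are the 5 highest of all genes tested, given as a description. Ccna2 measured 49.9, 39.2 and 45.8 CPM in CAP1-KO against 40.5, 37.5 and 35.8 CPM in Control. Within the 33, Orc6 (-0.18), Ccne1 (0.04) and Rrm2 (0.33) were least like the mean profile that includes them.

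**Figure D5:**
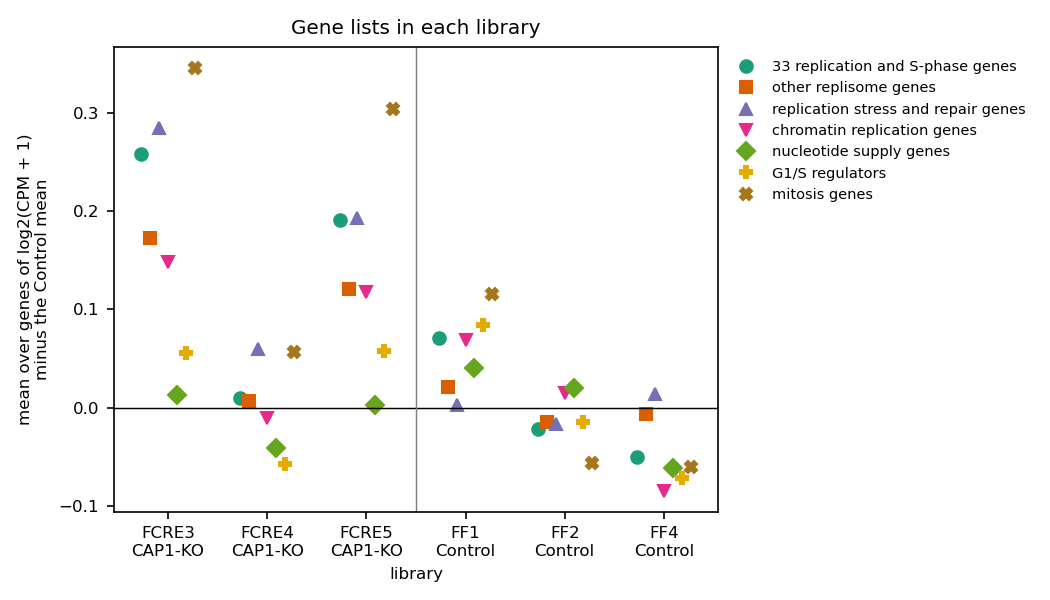
Mean over the genes of each list of log2(CPM + 1) minus the Control mean, in each library, for the 33 genes and 6 lists of related genes. Mitosis genes are highest in FCRE3 (0.35) and FCRE5 (0.30), and in FCRE4 they stand at 0.06, below FF1 at 0.12.

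Markers of progenitors and related cells of this tissue had medians on both sides of 0. Radial glia markers, of the main neural stem cells, had a median log2 fold change of -0.04 (0 of 12 called, Ptprz1 at -0.15 and Fabp7 at 0.06), and their summed level was 1959 to 2043 CPM in CAP1-KO and 1939 to 2102 CPM in Control. Intermediate progenitor markers had a median of 0.02 (0 of 7 tested called, of 8 listed, Insm1 at -0.21 and Eomes at -0.17, the 2 of highest level), and summed to 215, 163 and 214 CPM in FCRE3, FCRE4 and FCRE5, against 246, 214 and 160 CPM in FF1, FF2 and FF4. Like the replication genes, they were lowest of the CAP1-KO libraries in FCRE4, and so were the sums of the ventral forebrain and cortex markers. Of the 7 intermediate progenitor markers tested, 4 were positive and 3 negative. Gadd45g (0.46) and Btg2 (0.26), named after their values were seen, had groups that did not overlap, with CAP1-KO higher, as in 11.1% of all genes. Ventral forebrain markers, from the region next to the cortex, include genes of dividing progenitors and genes such as Lhx6, Dlx5 and Dlx6 that mainly mark postmitotic interneurons. They had a median of 0.44 (0 of 9 tested called, of 10 listed, Dlx1 at 0.30 and Lhx6 at -0.05). Their sum was 412, 351 and 382 CPM in FCRE3, FCRE4 and FCRE5, against 280 to 385 CPM in Control, where FF4 was highest. Of the 9 tested, 7 were positive and 2 negative. Nkx2-1, named after its values were seen, measured 19.0, 13.7 and 14.7 CPM in CAP1-KO. In FF1, FF2 and FF4 it measured 1.96, 1.64 and 17.3 CPM, so FF4 was like CAP1-KO. Oligodendrocyte precursor markers had a median of -0.24 (0 of 6 called, Pdgfra at -0.11 and Olig1 at -0.29) and summed to 141, 190 and 154 CPM in FCRE3, FCRE4 and FCRE5, against 179 to 194 CPM in Control. Without FF4, 9.31% of all genes were called higher and 18.9% lower. In that fit, 6 ventral forebrain markers were called higher and 1 lower, and 1 intermediate progenitor marker higher and 2 lower. Also called lower were 2 radial glia markers and 2 oligodendrocyte precursor markers. The count of 2 oligodendrocyte precursor markers was the same without FCRE4, where 175 of 13862 genes were called lower. The part of these markers in the replication gene differences was not tested.

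Blood, vessel and border markers were read in the same way. Red blood cell markers summed to 216, 138 and 249 CPM in FCRE3, FCRE4 and FCRE5, against 153 to 166 CPM in Control (median 0.27, 0 of 4 tested called, of 10 listed, Hbb-bs at 0.31 and Hba-a1 at 0.26), and so had the low FCRE4 seen in the replication genes. Microglia markers had a median of 0.56 (0 of 9 tested called, of 10 listed, Csf1r at 0.56 and Cx3cr1 at 0.44), and summed to 57.5 to 75.3 CPM in CAP1-KO and 37.3 to 51.1 CPM in Control. Meningeal fibroblast markers had a median of 1.08 (0 of 7 tested called, of 10 listed, Ptgds at 2.84 and Col3a1 at 1.35), and summed to 19.0, 101 and 89.5 CPM in FCRE3, FCRE4 and FCRE5, against 17.4 to 18.3 CPM in Control. They were high in FCRE4, where the replication genes were low, and in FCRE5, where the replication genes were high. Endothelial markers had a median of -0.20, and 2 of 10 fell, Flt1 (log2 fold change -0.77, limma adjusted p = 0.0118) and Kdr (-0.40, limma adjusted p = 0.0462), with sums of 123 to 138 CPM in CAP1-KO and 155 to 171 CPM in Control. Flt1 lost its call without FCRE3, FCRE5 or FF1 (limma adjusted p = 0.0544, 0.0867 and 0.0827), and Kdr on leaving out any library but FF4 (0.0721 to 0.186). With Xist in the fit neither was called (limma adjusted p = 0.0904 for Flt1 and 0.155 for Kdr), and Kdr also lost its call with no filter (0.0747) and on scaling to total reads (0.0602). Markers of the choroid plexus summed to 53.5 to 117 CPM in CAP1-KO and 1.52 to 5.44 CPM in Control (median 1.18), and 1 of 4 tested, of 7 listed, rose, Ttr (log2 fold change 6.08, limma adjusted p = 0.000103). Microglia markers had 7 called higher without FF4, where 9.31% of all genes were. Meningeal fibroblast markers had 6 called higher without FCRE3, where 65 of 13867 genes were. The part of these cells in the replication gene differences was not tested.

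With the Xist level as a covariate, 28 of the 33 genes were positive, the median was 0.20 and 0 were called. In that fit, 5 of the 33 were higher at an unadjusted p under 0.05 by limma (against 6.73% of all genes). Ccne2 had a log2 fold change of 0.31 there and Pole of 0.41. Since FF2 was the only Control library with high Xist, this fit compares CAP1-KO mainly with FF2. On scaling to total reads, 15 of the 33 were higher at an unadjusted p under 0.05 by limma (against 14.7% of all genes). In the authors' deposited table, 32 of the 33 had a positive log2 fold change and 11 a p-value under 0.05. The shares of all genes of that table at these cuts were not computed, so these counts have no background. An FDR under 0.05 was reached by 0 of the 33, and by 221 of the 27179 genes in that table. The lowest FDR of the 33, for Rfc3, was 0.0768.

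Chromosomes were taken from RefSeq, and the starts, neighbours and exon overlaps given here from GENCODE M21 on GRCm38. The 33 genes lay on 15 chromosomes. The start of 13 of them lay within 1000 bases of the start of a gene on the other strand, pointing away from it or overlapping it, and for 9 of these the neighbour was protein-coding, such as Mcm4 with Prkdc, Cdc45 with Ufd1 and Fen1 with Tmem258. Exons of 12 of the 33 overlapped exons of a gene on the other strand. The libraries were strand-specific, but the counting is not given in the sources used here, so reads of such pairs may have been divided in either way. Ccne2 shared 609 bases with Ints8, whose log2 fold change was -0.02, and Cdc45 shared 209 bases with Ufd1, at 0.03. Gins2 shared 2758 bases with Gse1, which was far more abundant at 152 CPM.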

How the data were processed

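Poly(A) RNA of 6 cortex libraries was sequenced. The submitters' processing notes name STAR, edgeR, GRCm38 and mm10, without versions, and the sources used here give neither the read counter nor the annotation. The values of each library are log2 normalized counts per the file headers. The authors' own statistics stand beside them: log2 fold change, average log2 CPM, an F statistic (deposited here as a score), a p-value and an FDR, all per the file headers. Library columns were put in a group by the genotype in their names.

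Every library shared 1 lowest value, whose antilog is 0.0584 CPM. Without that offset, the values were whole multiples of 1 step in 100% of cases (within 0.01 of a read), which gave reads and CPM. A level of 1 CPM was 31.2 to 37.3 reads. The planned count test assumed deposited counts, so its written alternative was used: limma 3.58.1 under R 4.3.3, using the intensity trend, with no covariate or block. It was run on log2(CPM + 1) for 13885 genes that averaged 1 CPM or more. P-values were adjusted over all of them by the Benjamini-Hochberg method (threshold 0.05). Fold changes on that scale understate the change of low genes. The smallest exact permutation p for 3 libraries against 3 is 0.1. The fit was also run on simulated reads, and the outcome is not given here. Those reads were drawn separately for each gene, so that run does not bear on effects that genes share within a library. Intervals of fold changes are limma's 95% confidence intervals.

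The genes, the 6 lists of related genes and 10 lists of cell markers were chosen with earlier results of these data known. From each list the called members were named, or the 2 of highest level, besides Cap1, Xist and Ddx3y, and genes outside that rule were chosen after their values were seen. Some genes that the rule selects are not reported here. Symbols missing from the table were filled from RefSeq by gene number (456 genes). Replicate pairs were compared by chi-square on recovered reads, and none fell within sampling noise. Promoters came from RefSeq (GRCm38.p6), exon lengths from GENCODE M21. Alternatives were other scalings (median of ratios, total reads), limma-voom, no filter, a pseudocount of 0.1, the deposited log2 values, the Xist level as a covariate, and leaving out each library. Figures were drawn with matplotlib 3.10.9.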

Additional observations from a re-analysis of the deposited data

How the results depend on the processing

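No paired analysis was possible because nothing in the labels ties a library to a litter or a sequencing run. The library numbers in the table (1, 2 and 4 in Control, 3, 4 and 5 in CAP1-KO) also do not correspond to the labels' own replicate numbers. Over the 13 alternatives, the median log2 fold change of the 33 genes lay between 0.08 (without FCRE3) and 0.21 (scaling to total reads), and the count called lower was 0 in each. The count called higher was 0 to 4 on leaving out a library, with 4 without FF4 and 1 without FCRE4, and 0 in the other alternatives. Over all genes tested, 78 were called higher and 56 lower, against 1292 and 2622 without FF4 and 23 and 3 with the Xist covariate.

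On leaving out a library, other replisome genes had 0 to 3 called higher, 0 to 1 lower and a median of 0.052 to 0.12. Nucleotide supply genes had 0 to 2 called lower and a median of -0.038 to 0.043. G1/S regulators had 0 to 3 called higher, 0 to 6 lower and a median of -0.028 to 0.074, which changed sign. Replication stress and repair genes had 0 to 2 higher and a median of 0.13 to 0.26, chromatin replication genes 0 to 1 higher, 0 to 1 lower and a median of 0.017 to 0.079, and mitosis genes 0 to 2 higher and a median of 0.18 to 0.32. Scaling to total reads, which moved the median of all genes to 0.056, gave medians of 0.14 for other replisome genes and 0.079 for nucleotide supply genes, and 15 of the 33 with an unadjusted p under 0.05.

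Some genes near 0 changed sign. With the Xist covariate, the log2 fold change was -0.020 for Orc6, -0.041 for Gins1, -0.024 for Pold1 and -0.033 for Rfc4. On leaving out a library it ranged from -0.027 to 0.057 for Orc6, -0.024 to 0.15 for Mcm3, -0.014 to 0.12 for Gins2, -0.084 to 0.12 for Pold1, -0.059 to 0.20 for Rfc5 and -0.24 to 0.025 for Rrm2. None of these genes was called in any of these fits, and the cause was not tested. Counting limits Orc1 most.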
